A study of Arabidopsis thaliana with 30 samples.

Results

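The 9 genes described here encode transcription factors of the ethylene response factor (ERF) family of Arabidopsis thaliana: RRTF1 (AT4G34410), ERF1A (AT4G17500), ERF2 (AT5G47220), ERF5 (AT5G47230), ERF6 (AT4G17490), ERF104 (AT5G61600), ERF105 (AT5G51190), ERF1 (AT3G23240) and ORA59 (AT1G06160). They are 9 of the 33602 loci in the deposited count tables. They were picked by name, as ERF genes linked to wounding, with their high levels in cell-sorted over unsorted material already known, so that contrast is described below without a test. All 9 had higher levels in protoplasts than in frozen tissue, and all 9 were lower in YFP-positive protoplasts than in YFP-negative ones, a direction in which 24.4% of all tested genes were called.

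RNA was sequenced in 15 libraries from inflorescences, each run in 2 lanes. Every plant carried pSHP2-GAL4 and pUAS-3xYpet, a yellow fluorescent protein (YFP) reporter that the SHP2 promoter drives through GAL4, crossed to pAP1-AP1::GR in the ap1; cal mutant background. Protoplasts, which are cells stripped of their walls, were separated by fluorescence-activated cell sorting (FACS) and taken up in Trizol as YFP-positive cells (YFP-POS, 3 libraries), YFP-negative cells (YFP-NEG, 4 libraries) and all sorted cells (ALL-SORT, 4 libraries). The unsorted group (NO-SORT, 4 libraries) was whole inflorescences frozen in liquid nitrogen, so ALL-SORT and NO-SORT differ in wall digestion, sorting and RNA collection together, and these cannot be told apart. Plant age and any inducer treatment are not given in the sources used here, and whether replicates came from separate plants is not stated, so p-values measure the spread between these libraries only. Total counts per library were 13969774 to 19011084 in YFP-POS, 13422821 to 15774591 in YFP-NEG, 12644721 to 21027032 in ALL-SORT and 14941768 to 16692127 in NO-SORT.

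ERF proteins carry an AP2/ERF DNA-binding domain, and many bind the GCC box, a short promoter element of defence genes. In ethylene signalling, receptors and the kinase CTR1 hold EIN2 inactive until the hormone binds; EIN2 then stabilises EIN3, which switches on ERF1, and F-box proteins EBF1 and EBF2 remove EIN3 again. Other ERF genes are switched on within minutes by wounding, pathogens or reactive oxygen, partly through the mitogen-activated protein (MAP) kinases MPK3 and MPK6, and jasmonate acts with ethylene on ERF1 and ORA59. RRTF1, also called ERF109, is known from leaves and roots as a rapid wound and redox response gene that links jasmonate to auxin synthesis.

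In the TAIR10.1 annotation each of the 9 genes is a single exon. RRTF1 lies at chr4:16451876-16453260 on the plus strand, ERF1A at chr4:9759203-9760391 on the plus strand and ERF6 at chr4:9752824-9754161 on the minus strand. ERF2 lies at chr5:19171643-19172956 on the minus strand, ERF5 at chr5:19179881-19181182 on the plus strand, ERF105 at chr5:20800473-20801437 on the minus strand and ERF104 at chr5:24766344-24767732 on the minus strand. ERF1 lies at chr3:8295617-8296604 and ORA59 at chr1:1882907-1883992, both on the plus strand. ERF1A and ERF6 are divergent neighbours 5041 bases apart with no locus between them, ERF2 and ERF5 are divergent and 6924 bases apart with 2 loci between them, and ERF104 stands 832 bases from ERF107, another ERF gene.

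The 300 bases before the annotated start of each gene were read from the TAIR10.1 genome of RefSeq and searched on both strands for 5 motifs: GCCGCC (the GCC box), TTGAC (the core of the W-box, bound by WRKY factors), CGCGTT (the rapid stress response element), CACGTG (the G-box, bound by factors such as MYC2) and CCGAC (the core of the dehydration-responsive element, DRE). Matches of different motifs overlapped in 0 of the 9 windows. The G-box was present in 4 of the 9, and in 7.09% of the 27443 windows of all genes. The windows of those 4 genes are shown because they hold the G-box, and those of RRTF1, ERF1A and ERF2 also because they share the longest runs of bases between members; motif letters are in capitals, those of a match on the other strand included, and all other bases are in lower case. The RRTF1 window is chr4:16451576-16451875 on the plus strand, that of ERF1A is chr4:9758903-9759202 on the plus strand, that of ERF2 is chr5:19172957-19173256 on the minus strand, and that of ORA59 is chr1:1882607-1882906 on the plus strand.
RRTF1: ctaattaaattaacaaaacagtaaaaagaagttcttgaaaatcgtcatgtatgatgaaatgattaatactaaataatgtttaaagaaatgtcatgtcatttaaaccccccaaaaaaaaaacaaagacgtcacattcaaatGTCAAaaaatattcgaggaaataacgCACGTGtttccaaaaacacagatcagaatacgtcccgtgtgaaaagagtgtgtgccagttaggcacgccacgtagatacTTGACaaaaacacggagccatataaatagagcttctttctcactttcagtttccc
ERF1A: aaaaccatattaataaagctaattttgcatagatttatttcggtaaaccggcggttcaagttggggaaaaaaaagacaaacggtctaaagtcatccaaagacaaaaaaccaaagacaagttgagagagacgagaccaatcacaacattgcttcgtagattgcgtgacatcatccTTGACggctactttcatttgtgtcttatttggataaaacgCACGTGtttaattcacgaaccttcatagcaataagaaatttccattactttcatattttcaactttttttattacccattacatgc
ERF2: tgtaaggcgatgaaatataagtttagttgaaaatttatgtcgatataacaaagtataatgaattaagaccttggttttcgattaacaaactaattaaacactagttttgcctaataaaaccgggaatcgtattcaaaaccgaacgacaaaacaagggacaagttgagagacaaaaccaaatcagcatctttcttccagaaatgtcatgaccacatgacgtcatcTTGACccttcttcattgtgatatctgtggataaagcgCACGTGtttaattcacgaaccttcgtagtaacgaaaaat
ORA59: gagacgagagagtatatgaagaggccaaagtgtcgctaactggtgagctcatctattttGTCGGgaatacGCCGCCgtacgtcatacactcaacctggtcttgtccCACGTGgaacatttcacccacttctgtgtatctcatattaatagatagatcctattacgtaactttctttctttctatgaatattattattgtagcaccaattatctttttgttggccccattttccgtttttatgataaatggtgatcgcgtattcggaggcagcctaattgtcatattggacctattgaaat

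ERF1A and ERF2 shared a run of 26 bases, cgCACGTGtttaattcacgaaccttc, that begins 88 bases before the start of ERF1A and 41 bases before that of ERF2. The same run was found in 2 of the 27443 windows, those of these genes. RRTF1 and ERF1A shared 13 bases around their G-boxes, aacgCACGTGttt. The W-box core was in 5 of the 9 windows against 50.4% of all windows, and the DRE core in 3 of the 9 (ERF5, ERF6 and ORA59) against 13.9%. Only the ORA59 window among the 9 held the GCC box, which 2.26% of all windows held, and 0 of the 9 held CGCGTT, against 3.08% of all. A match is a description of these letters and was not tested as a binding site.

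Levels are given as CPM, counts scaled to library size and adjusted by TMM factors (trimmed mean of M values) over the 15 libraries. Before the groups are compared, a pair of libraries needs naming. ALL-SORT replicate 4 had between 0.165 and 0.465 times the mean CPM of ALL-SORT replicates 1 to 3 over the 9 genes (median 0.227). NO-SORT replicate 1 had between 1.204 and 8.27 times the mean of NO-SORT replicates 2 to 4 (median 3.23). Over all expressed genes, log2 levels in ALL-SORT replicate 4 correlated at r = 0.983 with NO-SORT replicate 1, and at no more than 0.969 with its own group and 0.964 with the other NO-SORT libraries. Both libraries lay toward the other group, and results that rest on them are given with and without them.

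**Figure D1:**
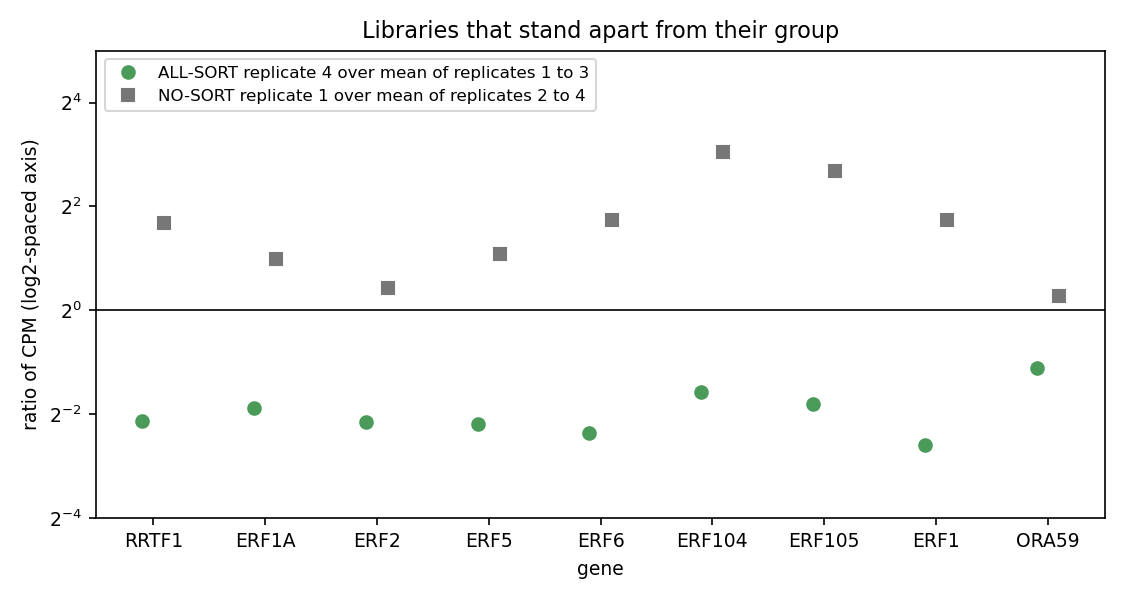
Ratio of CPM, on a log2-spaced axis, of ALL-SORT replicate 4 over the mean of ALL-SORT replicates 1 to 3 (circles) and of NO-SORT replicate 1 over the mean of NO-SORT replicates 2 to 4 (squares), for each of the 9 ERF genes. All circles lie below 1, with a median of 0.227, and all squares above 1, with a median of 3.23.

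RRTF1 had the highest level per kb of exon of the 9 in every sorted library, whereas in NO-SORT it ranked 7 of the 9 by mean. It had 433, 502 and 683 CPM in YFP-POS, against 1035, 1242, 1466 and 1085 CPM in YFP-NEG. Every YFP-POS library was below every YFP-NEG library, and the difference was -1.11 on the log2 scale (SE 0.20, adjusted p = 6.15e-04, edgeR quasi-likelihood test with Benjamini-Hochberg adjustment over 18830 genes, the test used for every adjusted p below). In these bulk samples, fewer cells with the transcript and less transcript per cell cannot be told apart. ALL-SORT had 891, 1214, 1239 and 253 CPM, against 1.64, 0.570, 0.486 and 0.469 CPM in NO-SORT. The NO-SORT levels rest on 8 to 25 counts a library, and the ALL-SORT levels on 5438 to 17966. The fitted ALL-SORT over NO-SORT log2 fold change was 10.17, the highest of the 9; it was 10.49 without ALL-SORT replicate 4, 10.78 without NO-SORT replicate 1 and 11.09 without both.

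ERF1A, an activator that binds the GCC box, changed least between the YFP fractions. It had 47.6, 85.9 and 84.3 CPM in YFP-POS, against 93.6, 139.0, 119.7 and 102.7 CPM in YFP-NEG. The ranges were apart, and the log2 difference was -0.60 (SE 0.21, adjusted p = 0.0341). This call was lost on leaving out YFP-POS replicate 1 (-0.35, adjusted p = 0.104), YFP-NEG replicate 2 (-0.49, adjusted p = 0.0941), YFP-NEG replicate 3 (-0.57, adjusted p = 0.0644) or YFP-NEG replicate 4 (-0.63, adjusted p = 0.0539). It was kept with the replicate number as a block in the fit (-0.68, SE 0.14, adjusted p = 0.00164). In ALL-SORT it stood at 106, 178, 156 and 39.8 CPM, against 12.9, 5.53, 8.88 and 5.04 CPM in NO-SORT, which was the highest mean of the 9 genes per kb in unsorted tissue.

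ERF2, a close relative of ERF1A and likewise an activator, had 19.9, 26.1 and 26.5 CPM in YFP-POS, against 48.1, 59.8, 51.4 and 43.2 CPM in YFP-NEG. The fractions did not overlap, with a log2 difference of -1.02 (SE 0.16, adjusted p = 2.66e-04). ALL-SORT libraries held 40.1, 67.6, 52.4 and 12.0 CPM, against 2.23, 1.03, 2.86 and 1.11 CPM in NO-SORT.

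ERF5, an activator in defence and stress responses that lies close to ERF2, had 96.7, 118 and 116 CPM in YFP-POS, against 212, 251, 252 and 191 CPM in YFP-NEG. Its log2 difference was -0.99 (SE 0.15, adjusted p = 1.86e-04). ALL-SORT held 167, 236, 194 and 43.4 CPM of ERF5, against 6.56, 1.99, 4.195 and 3.10 CPM in NO-SORT. Per kb of exon it was second only to RRTF1 in the mean of each sorted group.

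ERF6, a substrate of MPK3 and MPK6, and ERF104, a substrate of MPK6, were lower in YFP-POS as well. ERF6 had 64.3, 91.1 and 75.8 CPM in YFP-POS, against 129, 177, 175 and 136 CPM in YFP-NEG, a log2 difference of -0.95 (SE 0.17, adjusted p = 5.73e-04). ERF104 had 40.8, 62.2 and 57.8 CPM in YFP-POS, against 131, 210, 141 and 128 CPM in YFP-NEG, a log2 difference of -1.46 (SE 0.21, adjusted p = 1.35e-04). For both genes all YFP-POS libraries lay below all YFP-NEG libraries. ERF6 had 145, 189, 161 and 32.0 CPM in ALL-SORT, against 3.80, 0.912, 1.46 and 1.05 CPM in NO-SORT. ERF104 had 98.9, 197, 118 and 46.5 CPM in ALL-SORT, against 25.9, 1.25, 6.32 and 1.82 CPM in NO-SORT. ERF104 had the largest SD of any member within NO-SORT, 11.6 CPM, through the 25.9 CPM of replicate 1.

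ERF105, a stress and cold response ERF, had 22.8, 35.3 and 39.6 CPM in YFP-POS, against 101, 133, 110 and 98.0 CPM in YFP-NEG. The YFP-NEG libraries were close to each other and well above YFP-POS, with a log2 difference of -1.71 (SE 0.20, adjusted p = 3.43e-05). ALL-SORT had 78.1, 125, 90.2 and 28.0 CPM, against 7.61, 0.456, 1.03 and 2.05 CPM in NO-SORT. The whole ERF105 exon lies within AT5G51180 on the opposite strand, and reads of the pair are separated only if the counting used the strand, which is not given in the sources used here. AT5G51180 itself averaged 26.3 CPM in YFP-POS and 36.0 CPM in YFP-NEG, a log2 difference of -0.41 (adjusted p = 0.0262). RRTF1 likewise shares 661 bases with the opposite-strand RNA AT4G08985 and 226 bases with AT4G34412, whose levels of 20.6 CPM in YFP-POS and 24.2 CPM in YFP-NEG did not pass the test (adjusted p = 0.288).

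ERF1, a target of EIN3, and ORA59, which together activate the defensin gene PDF1.2 in leaves, were the scarcest members in sorted cells. ERF1 had 1.80, 3.99 and 3.20 CPM in YFP-POS, against 10.8, 12.2, 12.3 and 7.94 CPM in YFP-NEG, a log2 difference of -1.82 (SE 0.30, adjusted p = 3.97e-04). ORA59 had 0.764, 0.977 and 0.686 CPM in YFP-POS, against 2.68, 4.79, 2.203 and 1.78 CPM in YFP-NEG, a log2 difference of -1.78 (SE 0.46, adjusted p = 0.00706). The fractions were apart for both, although ORA59 rests on 12 to 14 counts a library in YFP-POS and 24 to 64 in YFP-NEG. ERF1 had 6.83, 12.2, 10.7 and 1.63 CPM in ALL-SORT, against 0.525, 0.0570, 0.122 and 0.293 CPM in NO-SORT, the last from 1 to 8 counts a library. ORA59 had 1.32, 2.84, 2.15 and 0.979 CPM in ALL-SORT, against 0.656, 0.684, 0.365 and 0.586 CPM in NO-SORT. ORA59 was the member with the smallest distance between sorted and unsorted material.

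**Figure D2:**
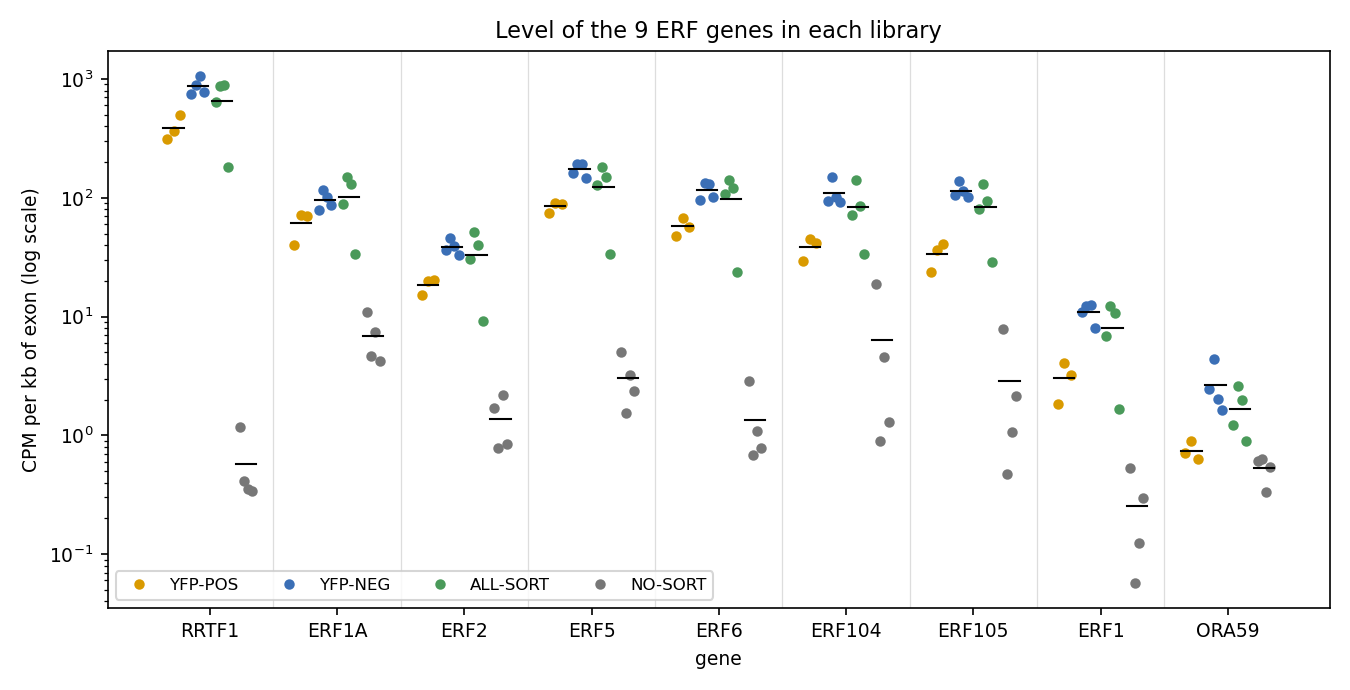
CPM per kb of exon on a log axis for the 9 ERF genes in the 15 libraries, with 1 point per library in replicate order from left to right within each group and a black bar at the group mean. The 4 NO-SORT points of RRTF1 lie between 0.338 and 1.18 CPM per kb, against 183 to 894 in ALL-SORT, and for every gene the YFP-POS points are all below the YFP-NEG points.

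Counted together, 9 of the 9 genes passed an adjusted p of 0.05 with lower levels in YFP-POS than YFP-NEG. Of the 18830 genes tested, 24.4% were called lower and 48.8% were called in either direction. The members' median log2 fold change was -1.11, against -0.01 over all genes tested. Ranges were apart in 9 of the 9, against 27.4% of all genes in that direction. With all 15 libraries in 1 fit, where the spread within ALL-SORT and NO-SORT enters the error, 6 of the 9 were called. That fit called 9376 of all genes, 5019 of them lower in YFP-POS, against 9184 and 4592 in the main fit. ERF1A (adjusted p = 0.187), ERF6 (adjusted p = 0.0690) and ERF104 (adjusted p = 0.0765) then no longer passed the threshold, while their log2 fold changes lay between -0.65 and -1.51.

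The size of the difference varied among members. It ran from -0.60 for ERF1A through -0.95 to -1.11 for ERF6, ERF5, ERF2 and RRTF1, to -1.46 for ERF104 and -1.71 to -1.82 for ERF105, ORA59 and ERF1. The 4 members with a G-box in the window spanned -0.60 to -1.78, and the other members -0.95 to -1.82, so these ranges overlap. Same-numbered YFP-POS and YFP-NEG libraries can be set against each other. Because the ranges were apart for all 9 genes, any pairing has each gene lower in YFP-POS, so the pairs show sizes only. For RRTF1 the paired log2 differences were -1.26, -1.31 and -1.10, and for ERF105 they were -2.13, -1.90 and -1.46.

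**Figure D3:**
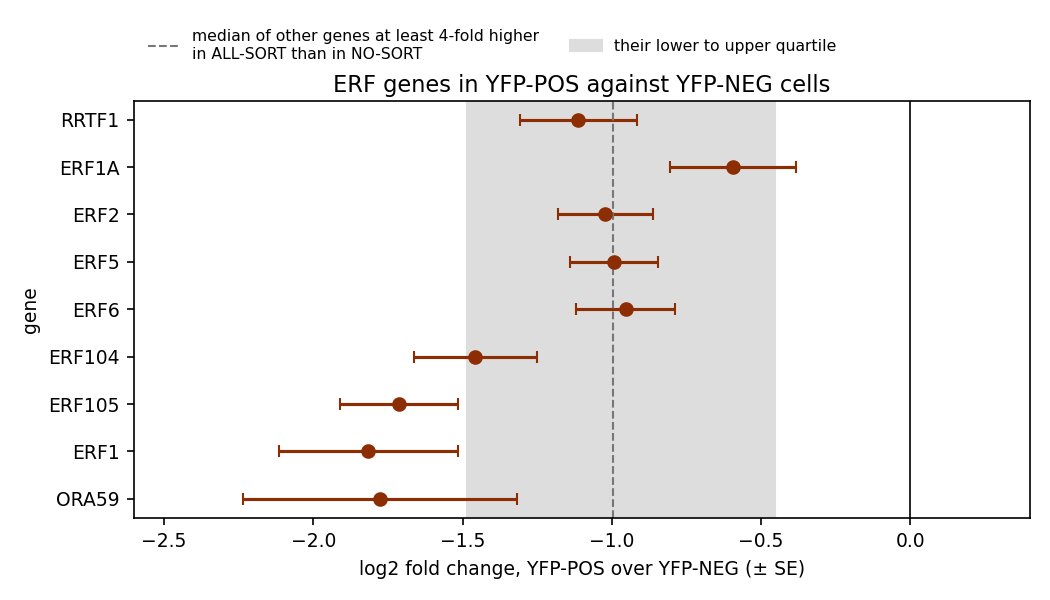
Fitted log2 fold change of YFP-POS over YFP-NEG for the 9 ERF genes, with error bars of 1 SE; the dashed line is the median, and the grey band the span between the quartiles, of 578 other genes at least 4-fold higher in ALL-SORT over NO-SORT. All 9 points lie left of 0, from -1.82 for ERF1 to -0.60 for ERF1A, on both sides of the dashed line at -0.997.

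The same contrast was read in other genes with high levels in ALL-SORT. This set was chosen after its values had been seen: 578 genes outside the 9 had at least 4-fold higher levels in ALL-SORT over NO-SORT, with ranges apart. Of these, 374 (64.7%) had lower levels in YFP-POS over YFP-NEG by the same test and 22 (3.81%) higher ones. Their median log2 fold change was -0.997, with quartiles of -1.49 and -0.45, and 6 of the 9 ERF genes lay between these quartiles.

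Levels of ERF genes that lie close together were also set against each other as 3 ratios. With 3 libraries against 4, the smallest p of the form of two-sided exact permutation test used here is 0.0571, so no ratio could pass 0.05 by it. The ratio of ERF5 to ERF2, per kb, was 4.63 ± 0.26 in YFP-POS (SD, n = 3), against 4.52 ± 0.30 in YFP-NEG (SD, n = 4). The ratio of ERF6 to ERF1A was 0.980 ± 0.203 in YFP-POS and 1.21 ± 0.07 in YFP-NEG (SD, n = 3 and 4). The ranges of the fractions overlapped for both ratios (exact permutation p = 0.629 for ERF5 to ERF2 and p = 0.171 for ERF6 to ERF1A, adjusted p = 0.629 and 0.257 over the 3 ratios). The ratio of ERF104 to ERF107 was 20.03 ± 6.22 in YFP-POS and 8.19 ± 0.61 in YFP-NEG (SD, n = 3 and 4), with ranges apart (exact permutation p = 0.0571, adjusted p = 0.171). In ALL-SORT the ratios averaged 3.78 for ERF5 to ERF2 and 0.947 for ERF6 to ERF1A, against 2.31 and 0.185 in NO-SORT. For ERF104 to ERF107 the mean was 8.70 in ALL-SORT (range 5.16 to 12.95) and 1.05 in NO-SORT. ERF107 rests on 25 to 60 counts a library in YFP-POS.

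RRTF1 made up 51.8% to 60.4% of the members' summed CPM per kb in the 11 sorted libraries, against 1.72% to 4.07% in NO-SORT. In ALL-SORT replicate 4, low in every member, RRTF1 made up 52.6%. ERF1A made up 5.75% to 10.3% of the sum in sorted libraries, against 22.0% to 46.0% in NO-SORT. The ERF1A share was 7.34% to 10.3% in YFP-POS, above the 5.75% to 6.92% in YFP-NEG, with 7.69% to 9.63% in ALL-SORT. The ERF105 share was 4.33% to 5.22% in YFP-POS, below the 6.50% to 8.13% in YFP-NEG, with 6.13% to 8.33% in ALL-SORT. The ERF1 share was 0.334% to 0.576% in YFP-POS, below the 0.593% to 0.819% in YFP-NEG, with 0.475% to 0.734% in ALL-SORT. The shares of ERF5, ERF104, ERF105 and ERF1 overlapped between sorted and NO-SORT libraries. ERF104 took 5.09% to 9.63% in sorted libraries, against 8.92% to 37.8% in NO-SORT, with its top share in replicate 1. As a share of all counts in a library, the 9 genes took 0.0701% to 0.110% in YFP-POS, 0.180% to 0.235% in YFP-NEG, 0.0467% to 0.206% in ALL-SORT and 0.00131% to 0.00631% in NO-SORT.

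**Figure D4:**
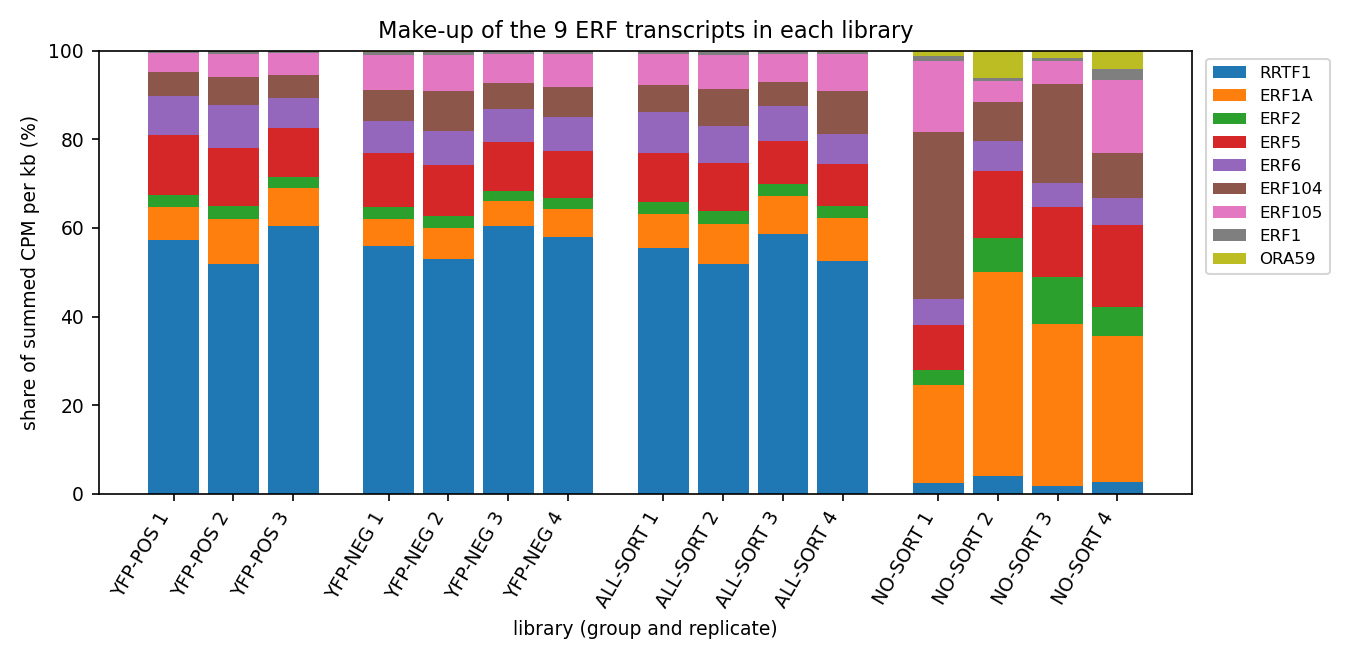
Share (%) of the summed CPM per kb of the 9 ERF genes taken by each gene, with 1 stacked bar per library. RRTF1, at the base of each bar, takes 51.8% to 60.4% in the 11 sorted libraries and 1.72% to 4.07% in NO-SORT, where ERF1A takes 22.0% to 46.0%.

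Across the groups, 8 of the 9 genes had the same order of mean CPM, with YFP-NEG highest, then ALL-SORT, YFP-POS and NO-SORT; for ERF1A the mean of ALL-SORT exceeded that of YFP-NEG. Without ALL-SORT replicate 4 that order held for 6 of the 9, and ALL-SORT was highest for ERF1A, ERF2 and ERF6. YFP-NEG and ALL-SORT overlapped in every gene. ALL-SORT and YFP-POS overlapped in all but ORA59. YFP-POS and NO-SORT were apart in all 9. The following folds share libraries with the contrast the genes were picked by and carry no test.

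In ALL-SORT over NO-SORT the log2 fold changes ran from 1.66 for ORA59 to 10.17 for RRTF1, with a median of 4.88. All 9 genes had ranges apart and higher in ALL-SORT, beside 13.0% of the 18733 genes fitted, and nothing is read from that count. The median was 5.17 without ALL-SORT replicate 4 (9 of the 9 apart, beside 19.1% of genes), 5.58 without NO-SORT replicate 1 and 5.92 without both. Leaving out NO-SORT replicate 1 moved the fold of RRTF1, ERF6, ERF104, ERF105 and ERF1 by more than 1.5 times, most for ERF104, whose log2 fold change was 5.22 without it and 3.72 with it. YFP-NEG over NO-SORT had a median of 5.39, from 2.35 for ORA59 to 10.64 for RRTF1, with 9 of the 9 apart beside 21.2% of genes; without NO-SORT replicate 1 the median was 6.10 and RRTF1 stood at 11.25. YFP-POS over NO-SORT had a median of 3.62, from 0.53 for ORA59 to 9.48 for RRTF1, with 9 of the 9 apart beside 22.0% of genes; without NO-SORT replicate 1 the median was 4.18. For ORA59 the lowest YFP-POS library, at 0.686 CPM, was all but level with the highest NO-SORT library, at 0.684 CPM.

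Against ALL-SORT, YFP-POS had the lower mean in every gene, whereas YFP-NEG overlapped ALL-SORT in every gene and its direction varied. YFP-NEG over ALL-SORT had a median of 0.42, with 0 of the 9 apart beside 8.23% of genes higher and 14.1% lower. ERF1A had a log2 fold change of -0.08 in that comparison. Without ALL-SORT replicate 4 the median was 0.12, and ERF1A (-0.37), ERF2 (-0.08) and ERF6 (-0.11) were lower in YFP-NEG. YFP-POS over ALL-SORT had a median of -0.83, with only ORA59 apart and lower beside 16.9% of genes. Without ALL-SORT replicate 4, all 9 were apart and lower, beside 22.3% of genes, with a median of -1.13.

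The 9 genes moved together across sorted libraries. Pearson's r of log2(CPM + 0.5) over the 11 sorted libraries ran from 0.722 to 0.983 in the 36 pairs of members, with a median of 0.929, and without ALL-SORT replicate 4 from 0.736 to 0.981, with a median of 0.946. These values share the group differences and the low ALL-SORT library and are a description. Among 13566 genes with a mean of at least 10 CPM, the 5 outside the members most like RRTF1 over the 11 libraries were ZF2 (r = 0.996), NAC102 (r = 0.994), AT1G70420 (r = 0.992), ATAF2 (r = 0.992) and NUDT4 (r = 0.992). ZF2 encodes a zinc-finger repressor, NAC102 and ATAF2 are NAC-family transcription factors, and NUDT4 is a Nudix hydrolase. ZF2 ranged from 71.0 to 113 CPM in YFP-POS, against 162 to 237 CPM in YFP-NEG, and reached at most 3.34 CPM in NO-SORT. Without ALL-SORT replicate 4 the 5 were ZF2, RAS1, ERD14, BCA4 and AT1G76600 (r of 0.994 to 0.996), so ZF2 alone stood in both lists. Of the members with 10 CPM or more, ERF5 ranked highest by likeness to RRTF1 (rank 36, r = 0.973) and ERF104 lowest (rank 372, r = 0.890). Without ALL-SORT replicate 4, ERF105 ranked highest (rank 204, r = 0.960), ERF5 had rank 222, and ERF1A was lowest (rank 1387, r = 0.844).

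Other ERF genes were compared in the YFP fractions by lists of family and pathway genes. Of 16 other ERF genes of groups IX and X, the groups that hold the 9, 9 were tested, 2 were lower in YFP-POS and 0 higher. Among all genes tested, 24.4% were called lower and 24.4% higher, and nothing is read from the count of 2. ERF107, next to ERF104, averaged 2.65 CPM in YFP-POS and 16.9 CPM in YFP-NEG (log2 fold change -2.63, adjusted p = 5.20e-05). ERF106 averaged 36.3 CPM in YFP-POS and 107 CPM in YFP-NEG (log2 fold change -1.51, adjusted p = 8.96e-06). TDR1, next to ERF1, had a log2 fold change of -1.29 that did not pass the test (adjusted p = 0.0952).

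Repressor ERFs carry an EAR motif and silence the promoters that activators such as ERF1A and ERF5 use. Of 8, 7 were tested: ERF11 was lower in YFP-POS (27.1 against 89.2 CPM in YFP-NEG, log2 fold change -1.67, adjusted p = 2.00e-04) and ERF7 higher (51.5 against 38.7 CPM in YFP-NEG, log2 fold change 0.46, adjusted p = 0.0219). The other 5 did not pass the test, beside 24.4% of all genes called in each direction.

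Of 13 ethylene signalling genes tested, 7 were higher in YFP-POS and 1 lower, with a median log2 fold change of 0.64; 24.4% of all genes were called higher. ETR2, an ethylene receptor, was higher (log2 fold change 1.35, adjusted p = 0.00114), as were EBF2 (1.09, adjusted p = 7.36e-04), RAN1, the copper transporter that loads the receptors (0.96, adjusted p = 2.24e-04), EBF1, EIN2, CTR1 and ETR1. The receptor gene ERS1 was lower (log2 fold change -1.09, adjusted p = 6.95e-05). EIN3 averaged 180 CPM in YFP-POS and 181 CPM in YFP-NEG, with a log2 fold change of 0.04 (SE 0.11).

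Among 5 MAP kinase genes, MPK3 was lower in YFP-POS (127 against 413 CPM in YFP-NEG, log2 fold change -1.65, adjusted p = 6.89e-05) and so was MKK9 (log2 fold change -0.51, adjusted p = 0.0258). MKK5 (0.71, adjusted p = 0.00180) and MPK6 (0.45, adjusted p = 0.00859) were higher, and MKK4 did not pass the test. Each direction held 24.4% of all genes tested.

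Of 9 known ERF targets, 4 had enough counts to be tested. YUC2, an auxin synthesis gene that RRTF1 binds, averaged 2.14 CPM in YFP-POS and 6.98 CPM in YFP-NEG (log2 fold change -1.66, adjusted p = 6.49e-04). HEL, a hevein-like defence gene, averaged 1.76 CPM in YFP-POS and 0.218 CPM in YFP-NEG (log2 fold change 2.98, adjusted p = 0.00412), from 24 to 33 counts a library in YFP-POS and 0 to 8 in YFP-NEG. ASA1, a tryptophan synthesis gene and the other auxin-related target of RRTF1, had a log2 fold change of 0.22 (adjusted p = 0.339). PDF1.2a, the defensin gene that ERF1 and ORA59 activate, and PDF1.3, another defensin gene, had 0 counts in all 15 libraries, and a count of 0 allows up to 3 counts, or 0.140 to 0.248 CPM. Of the list genes named, ERF106, EBF2, ERS1, MPK3, MPK6, MKK5, CHI-B, THI2.1, ASA1, WRKY40, MYC2 and SHP2 overlap loci on the opposite strand in the annotation, so the limit named for ERF105 holds for them too.

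Of a list of 10 other early response genes, 9 were lower in YFP-POS and 0 higher, beside 24.4% of all genes called lower. The list had a median log2 fold change of -1.40. WRKY40, a transcription factor of defence, had the widest difference (76.6 CPM in YFP-POS and 388 CPM in YFP-NEG, log2 fold change -2.28, adjusted p = 6.04e-05), followed by TCH4, a touch-induced wall enzyme (-1.66, adjusted p = 2.63e-05), and JAZ1, a jasmonate repressor (-1.66, adjusted p = 2.97e-05). MYC2, a jasmonate factor that binds the G-box, averaged 961 CPM in YFP-POS and 1066 CPM in YFP-NEG and did not pass the test (log2 fold change -0.10, adjusted p = 0.669).

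**Figure D5:**
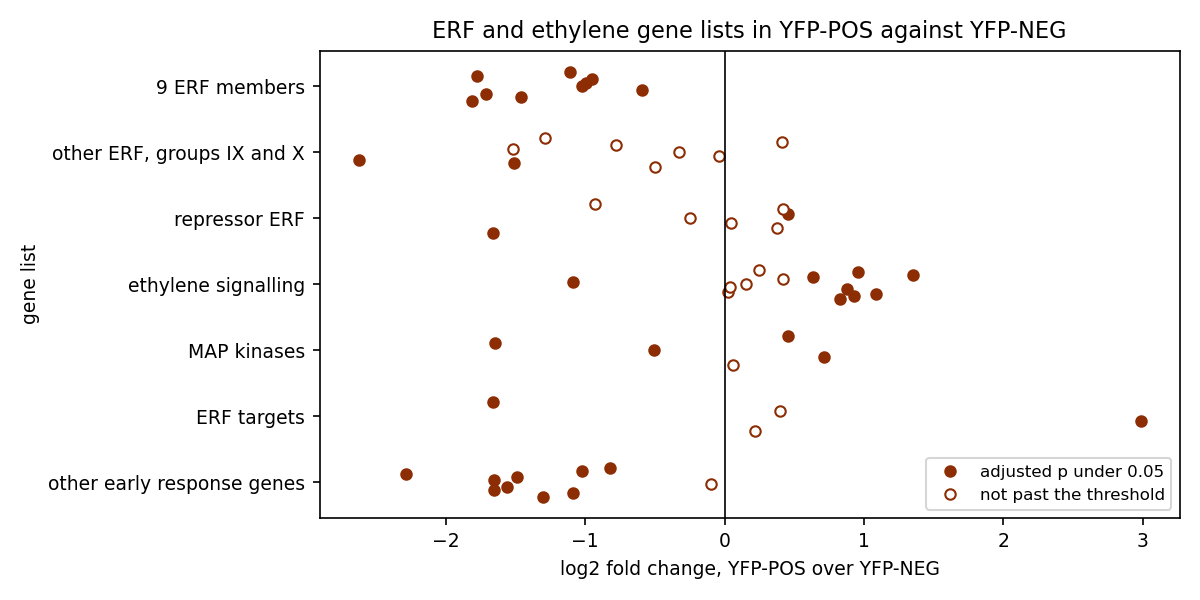
Fitted log2 fold change of YFP-POS over YFP-NEG for each tested gene of 7 lists, with filled points for genes past an adjusted p of 0.05 and open points for the rest. The 9 members and 9 of 10 other early response genes are filled and left of 0, and 7 of 13 ethylene signalling genes are filled and right of 0.

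Cell-type markers moved with the same contrast, in which 24.4% of all genes tested were called in each direction. SHP2, the gene whose promoter drives the reporter, averaged 36.1 CPM in YFP-POS and 1.84 CPM in YFP-NEG, and 6 of 6 markers of the medial gynoecium were higher in YFP-POS (summed CPM of 420 to 656, against 17.8 to 31.8 in YFP-NEG). Of 4 stamen and petal markers, 3 were lower in YFP-POS and 1, EMS1, was higher (summed CPM of 267 to 303, against 448 to 498 in YFP-NEG). All 3 tested tapetum and pollen markers were lower (summed CPM of at most 2.73, against 9.51 to 37.0 in YFP-NEG), MS1 had 0 counts in YFP-NEG, and 2 of 3 photosynthesis markers were lower (summed CPM of 2968 to 3221, against 3976 to 5617 in YFP-NEG). The part of these differences in cell make-up in the ERF values was not tested.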

How the data were processed

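The authors deposited tables of raw counts per locus, 1 column per biological replicate; 30 samples stand for 15 libraries with 2 lanes each, and how lanes were combined and whether counting used the strand are not given in the sources used here. The submitters' processing notes name the TAIR10 build, FastQC, TopHat2 2.0.10, HTSeq, edgeR, DESeq2 and Cufflinks 2.2.1, without their roles; libraries were strand-specific and single-end, per the labels' protocols. Columns were mapped to groups and replicates by name.

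YFP-POS and YFP-NEG were compared with edgeR 4.0.16 in R 4.3.3 (filterByExpr, TMM, quasi-likelihood F test, Benjamini-Hochberg adjustment over all genes tested, threshold 0.05). SE is the log2 fold change over the square root of F. CPM used TMM factors over all 15 libraries. Gene positions, lengths, overlaps and sequences came from RefSeq TAIR10.1. Alternatives were other scalings, filters, DESeq2 1.42.0, limma-voom 3.58.1, a replicate block, all libraries in 1 fit and leaving out each library; folds without ALL-SORT replicate 4 or NO-SORT replicate 1 against the YFP groups were added after seeing the data. The script was also run on simulated data in which few genes changed and libraries were independent. In the real data 48.8% of tested genes were called, so nothing about these calls is read from that run. The members and lists were chosen with earlier results of these data known. Named list genes are the called ones with the largest differences, up to 4 a list, and neighbours of members; other list genes were named after their values were seen.

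Same-numbered YFP-POS and YFP-NEG libraries deviated together from their group means over 19460 genes (r = 0.331, 0.235 and 0.304 for replicates 1, 2 and 3). Values for different-numbered libraries are not given here. The replicate number was therefore used as a block in an alternative fit only, and the main test took no account of it. The labels do not say what same-numbered libraries share. For ALL-SORT and NO-SORT the r values were -0.034, -0.053, 0.036 and -0.084. Among the 30-base stretches of the members' exons, 2 of ERF6 and 3 of ORA59 recur elsewhere in the genome, and 0 of the others. Intervals and floors of counts cover counting error only.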

Additional observations from a re-analysis of the deposited data

Results flagged for a closer look

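Gaps between libraries were examined by Dixon's criterion on log2(CPM + 0.5) of the 9 genes in the 3 groups of 4 libraries, 27 in all, of which chance flags about 1 in 20. RRTF1 in NO-SORT replicate 1 lay far above the other NO-SORT libraries (1.64 CPM, against 0.469 to 0.570 CPM), with a gap of 0.874 of the range. ERF6 in ALL-SORT replicate 4 lay far below the other ALL-SORT libraries (32.0 CPM, against 145 to 189 CPM), with a gap of 0.849 of the range. Both are the libraries that lay toward the other group in every member when set against the mean of the rest of their group. For ERF2 and ORA59, NO-SORT replicate 1 was not the highest NO-SORT library. ERF2 had 2.23 CPM there and 2.86 CPM in replicate 3, and ORA59 had 0.656 CPM there and 0.684 CPM in replicate 2. What sets these libraries apart was not tested.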

How the results depend on the processing

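With the replicate number as a block, 9521 genes and 9 of the 9 members were called between YFP-POS and YFP-NEG, against 9184 and 9 without it; the block changed no member's call, and the ALL-SORT over NO-SORT median of the members was 4.78 with it, against 4.88. Leaving out each library in turn gave 7910 to 9138 genes and 8 to 9 members called, and a median ALL-SORT over NO-SORT log2 fold change of 4.51 to 5.58. Without both ALL-SORT replicate 4 and NO-SORT replicate 1 that median was 5.92. Of 144 member values under 16 alternatives, 0 changed direction and 7 lost their call: 3 with all libraries in 1 fit and 4 for ERF1A on leaving out 1 library, each given above. With upper-quartile scaling the median log2 fold change was -0.11 over all genes and -1.21 over the members, against -0.01 and -1.11, and higher calls made up 41.8% of calls, against 50.0%. ORA59 in YFP-POS and ERF1 in NO-SORT rest on few counts, which limits their folds.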

Other observations

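Lists read in ALL-SORT over NO-SORT are a description with no test, since the 9 genes were picked by this contrast. The lists too were chosen with earlier results of these data known, so nothing is read from their counts. Of all genes, 13.0% had ranges apart and higher. Of 13 ethylene signalling genes only EIN3 had ranges apart (175 CPM in ALL-SORT and 132 CPM in NO-SORT), with a list median of -0.06. The 10 other early response genes were all apart and higher, with a median of 7.18. Of 8 repressor ERF genes 5 were apart and higher, led by ERF11 (62.9 CPM in ALL-SORT and 0.858 CPM in NO-SORT) and ERF4 (505 CPM in ALL-SORT and 35.1 CPM in NO-SORT). ERF4 did not pass the test between YFP-POS and YFP-NEG (log2 fold change -0.25, adjusted p = 0.307).

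ERF13, a group IX gene outside the 9, resembled the members in ALL-SORT over NO-SORT (137 CPM in ALL-SORT and 3.22 CPM in NO-SORT, log2 fold change 5.43) but had 120 CPM in YFP-POS and 156 CPM in YFP-NEG, with ranges that overlapped (log2 fold change -0.33, adjusted p = 0.154). Of the ERF targets tested there, CHI-B, THI2.1, ASA1 and YUC2, 0 had ranges apart between ALL-SORT and NO-SORT. Of 5 MAP kinase genes, 4 were apart and higher in ALL-SORT, beside 13.0% of all genes. MPK3 and MKK9 averaged 238 and 158 CPM in ALL-SORT, against 31.4 and 14.6 CPM in NO-SORT. MKK4 and MKK5 averaged 92.9 and 46.6 CPM in ALL-SORT, against 26.8 and 34.6 CPM in NO-SORT. MPK6 overlapped.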
